A study of Mus musculus with 4 samples.

Results

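The chaperone and co-chaperone genes of a mouse fibroblast line were examined with and without withdrawal of tetracycline, which per the labels induces the double-stranded RNA-activated kinase PKR. The genes were taken by symbol: names starting with Hspa, Hspb, Hspd, Hspe, Hsph, Hsp90a, Dnaj, Fkbp or Hsf, the TRiC subunits Tcp1 and Cct2 to Cct8, and Stip1, with Hspa5 left out. This gave 66 probe sets of 51 genes, out of 13057 probe sets that were no controls. The first array type held 46 of them (37 genes, of 6523 probe sets) and the second type, marked MB in the sample titles, held 20 (18 genes, of 6534). A further probe set that was annotated with several symbols, 1 of which matched, was left out. The rule reads gene symbols only and uses no measured value.

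All 4 arrays measured total RNA of a stable NIH3T3 line, an immortalised mouse embryonic fibroblast line, with wild-type PKR behind a promoter that tetracycline represses. The labels do not say whether the line is 1 clone or from which species its PKR came. In 1 group the cells grew in DMEM with 5% FCS and 1 µg/ml tetracycline, which represses the promoter of the transgene. In the other group tetracycline had been withdrawn for 5 h, and no serum content is given for it. Both groups carry the transgene, so the comparison is of 1 cell line with and without tetracycline. Each group has 1 array of each type, and the types carry different probe sets. No value below therefore has a replicate error, no p-value was computed, and the number of arrays limits the precision.

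Heat shock proteins and their partners help other proteins to fold, keep them soluble or hand them on for degradation. HSP70 binds exposed hydrophobic stretches in a cycle driven by ATP. J-domain proteins of the Dnaj families start that cycle, and HSP110 proteins and Hspbp1 drive nucleotide exchange. HSP90 receives clients from HSP70 through the adaptor Stip1 and works with FKBP-type prolyl isomerases such as Fkbp4 and Fkbp5. TRiC is a ring chaperonin of the cytosol that folds actin and tubulin, and HSP60 with HSP10 form the chaperonin of mitochondria. Under proteotoxic stress the factor Hsf1 binds heat shock elements in DNA, which are inverted repeats of the letters GAA, and switches on inducible members such as Hspa1a, Dnajb1 and Hsph1. Some members touch PKR itself: Dnajc3 encodes P58IPK, first described as an inhibitor of PKR, and Dnajb1 encodes HSP40, which holds P58IPK inactive. Hsp90 also binds PKR.

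The label of cytosolic and mitochondrial chaperones covers only part of what the symbols brought in. Of the 51 genes, 7 encode proteins of the endoplasmic reticulum (Dnajb9, Dnajb11, Dnajc1, Dnajc3, Dnajc10, Fkbp2 and Fkbp9), and 7 encode proteins of mitochondria or their outer membrane (Hspa9, Hspd1, Hspe1, Dnaja3, Dnajc11, Dnajc15 and Fkbp8). Hsp90ab1, Hspa1b and Hsf1 were not among the members.

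The upstream regions of 4 members are shown because they carry, or lack, the letters through which heat shock factors act at genes whose values are described below. Promoter windows came from RefSeq on GRCm38.p6 and reach from 250 bases before to 50 bases after each annotated start. They were found for 44 of the 51 genes. The letters searched were GAANNTTC and TTCNNGAA, each its own reverse complement and so read on both strands, which stand for 2 inverted units and can overlap each other. Capitals mark them in the 250 bases before the start, 5′ to 3′ on the strand of the gene. For Hspe1 only the 215 bases between it and its neighbour Hspd1 are shown.
Hspa1a (chr17:34972157-34972406, minus strand): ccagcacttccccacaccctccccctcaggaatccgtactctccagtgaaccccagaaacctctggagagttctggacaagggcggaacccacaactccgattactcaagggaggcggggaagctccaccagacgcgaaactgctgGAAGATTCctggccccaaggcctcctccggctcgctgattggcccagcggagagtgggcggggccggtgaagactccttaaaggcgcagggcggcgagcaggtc
Hsph1 (chr5:149636337-149636586, minus strand): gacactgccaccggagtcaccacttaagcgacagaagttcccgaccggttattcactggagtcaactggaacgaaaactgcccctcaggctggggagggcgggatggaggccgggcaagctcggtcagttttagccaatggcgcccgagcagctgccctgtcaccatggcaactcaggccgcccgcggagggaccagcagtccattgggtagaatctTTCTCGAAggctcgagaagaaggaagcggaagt
Hspe1 (chr1:55087933-55088147, plus strand): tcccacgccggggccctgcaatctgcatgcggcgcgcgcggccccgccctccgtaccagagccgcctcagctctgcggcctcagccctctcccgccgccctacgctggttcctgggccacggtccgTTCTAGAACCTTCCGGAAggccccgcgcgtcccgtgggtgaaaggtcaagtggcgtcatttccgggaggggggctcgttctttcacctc
Dnajb1 (chr8:83607925-83608174, plus strand): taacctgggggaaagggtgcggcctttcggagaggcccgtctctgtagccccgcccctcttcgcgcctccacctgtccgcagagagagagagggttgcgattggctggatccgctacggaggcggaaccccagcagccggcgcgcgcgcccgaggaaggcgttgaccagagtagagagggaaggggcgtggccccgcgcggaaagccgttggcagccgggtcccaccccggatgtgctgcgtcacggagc

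The Hspe1 region holds 4 alternating units in 1 unbroken run, which begins 89 bases before the start. The region lies between Hspe1 and Hspd1, which are read in opposite directions from starts 216 bases apart. Another annotated Hspd1 start, 95 bases inside Hspe1, was not used for it. The same letters thus stand upstream of both genes of the mitochondrial chaperonin. In Hspa1a the pair begins 104 bases before the start, and in Hsph1 33 bases before it. Neither Dnajb1 window held the letters, which says only that they are not in these windows. Over the member genes with a window, 13 of 44 (29.5%) held at least 1 pair in any of their windows, against 17.0% of 27025 genes in the table and 14.8% of 4891 genes on these arrays. Longer runs, in which a further inverted unit follows after 2 bases (both strands), stood in 4 of 44 (9.09%), against 0.662% and 0.593%. The 4 genes were Hspe1, Hspd1, Hsph1 and Dnajb6, and the run shared by Hspe1 and Hspd1 is counted for each of them.

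The deposited values were linear intensities on a common scale (trimmed means of 999.9 and 1000.4 for the first type, 994.3 and 995.2 for the MB type). A probe set was called measured when both of its intensities exceeded a floor, the 25th percentile of all intensities of the type (129.7 and 80.0). A stricter control floor was set where 95 percent of the readings of 39 control probe sets for bacteria and yeast lay below it (281.5 and 340.4). The only Eif2ak2 probe set, for PKR itself, read 643.3 with tetracycline and 663.6 after withdrawal (a log2 change of 0.045), both above the control floor. It may not detect the transgene, so the induction that the labels give is not shown by these arrays. Of the 13 fibroblast marker genes on the arrays, 11 were above the control floor. Of the markers of other cell types this was so for 3 of 8 leukocyte, 1 of 6 epithelial and 0 of 5 endothelial genes. Summed over their probe sets on the MB type, fibroblast markers read 191158.9 and 155662.6, leukocyte markers 3554.5 and 3747.1, epithelial markers 257.0 and 458.8, and endothelial markers 847.1 and 539.1, with tetracycline and after withdrawal. On the first type the sums in the same order were 61024.7 and 49178.8, 1918.4 and 1655.8, 1049.5 and 1235.5, and 226.6 and 227.2. The part of these differences in the chaperone values was not tested.

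The chaperone transcripts differed little between the groups. Of the 66 probe sets, 59 were measured, 5 were above the floor on 1 array only and 2 on neither. Changes are log2 ratios, withdrawn over tetracycline, so a positive value is higher after withdrawal. On the first type 1 of 42 measured probe sets reached 2-fold, that of Hspb2, and it was lower, where 8.38% of all measured probe sets of the type reached it in either direction. On the MB type 1 of 17 did, that of Dnajb3, and it was higher, against 15.1%. Above the control floor the counts were 0 of 37, against 3.18% of all, and 0 of 15, against 2.74%, shares at which about 1 probe set or fewer would be counted among so few. At 1.5-fold the first type had 3 of 42, all lower (Hspb2, Dnajc15 and Dnajc13), against 10.7% lower and 12.4% higher over all probe sets. The MB type had 1 of 17 at 1.5-fold, Dnajb3 again, against 30.5% in either direction.

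**Figure D1:**
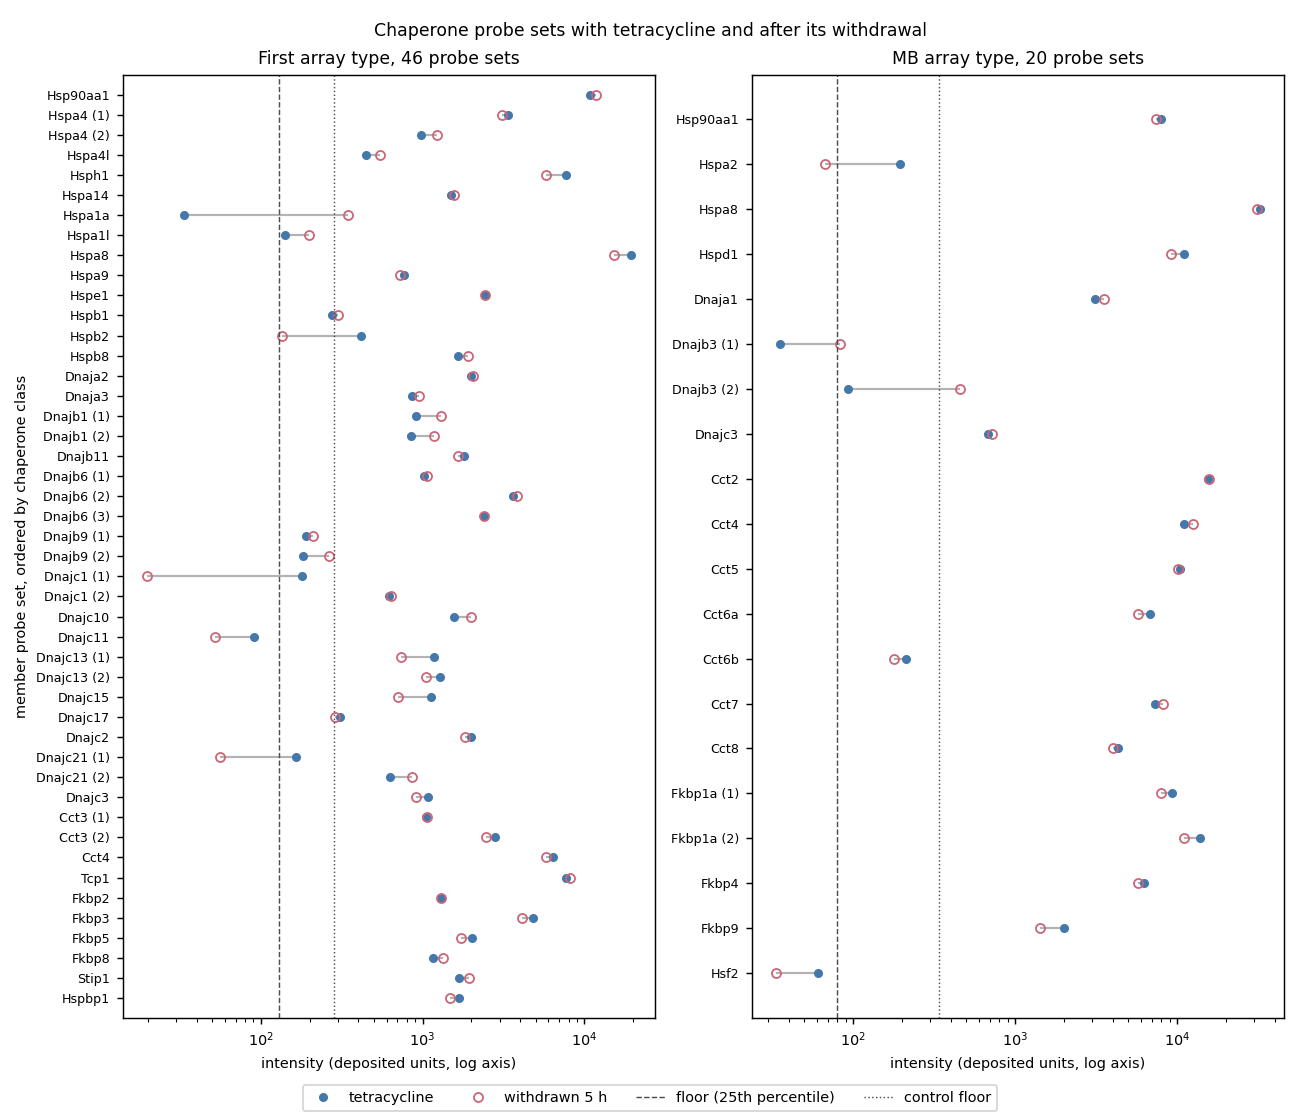
Intensities of the 66 chaperone probe sets (rows, by class, numbered where a gene has several) on the first array type (left) and the MB type (right), on a log axis in the deposited units. Filled points are the tetracycline array, open points the withdrawn array, the dashed line is the floor and the dotted line the control floor. Most pairs of points overlap or nearly touch, and the wide gaps (Hspa1a, Hspb2, Dnajc1, Dnajc21, Hspa2 and Dnajb3) reach to or below the control floor.

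On the first type the middle 50% of the measured chaperone changes lay between -0.17 and 0.18, and that of all measured probe sets between -0.30 and 0.31. Above the control floor the first type had 34 of 37 chaperone probe sets within 0.5 of no change, or 91.9%, against 78.7% of all. The MB type had 15 of 15, against 80.2%. Each change was set beside a spread, which is the robust SD of the changes seen on the 200 measured probe sets of closest level. Such a spread mixes noise with true differences and cannot stand in for replicates. Of the 59 measured chaperone probe sets, 12 changed by more than 1 spread (20.3%, against 32.7% of all 8762 measured) and 0 by more than 2 (against 6.32%). Taken per gene, as the median over the measured probe sets of both types, 25 of 47 genes were higher, 22 were lower, and their median was 0.006. Over all 4507 measured genes 49.6% were higher and the median was -0.004. The array types leaned in opposite directions. Of the chaperone probe sets 25 of 42 were higher on the first type (59.5%, against 48.9% of all). On the MB type 6 of 17 were higher (35.3%, against 52.5%).

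In the HSP70 class Hspa8 encodes the constitutive cytosolic HSC70. Its probe set on the first type read 19473.5 with tetracycline and 15273.7 after withdrawal, a change of -0.35 beside a spread of 0.20. On the MB type another Hspa8 probe set read 32589.1 and 31282.9 (-0.059, spread 0.18). Both were lower, but only the first by more than the spread, and both carry the _f_ suffix that the Affymetrix scheme gives to probe sets shared by a sequence family. The spread at this level is small, and the ratio of 1.73 was the largest of any measured member. Hspa9, the HSP70 of mitochondria, read 764.2 and 722.3 (-0.081). Hspa14, which works with Dnajc2 on the ribosome at nascent chains, read 1510.4 and 1569.8 (0.056). Both lay well within the spread at their level.

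The inducible and the testis-type HSP70 genes were at or near background. Hspa1a, the stress-inducible HSP70 whose upstream region is shown above, went from 33.5 with tetracycline, which is below the floor, to 345.0. It was thus at least 2.66-fold higher against the floor and at least 1.23-fold higher against the control floor. The withdrawn value lies just above the level reached by control probe sets, and Hspa1b is a nearly identical gene whose transcript this probe set could also detect. Hspa1l, its neighbour with expression mainly in the testis, read 140.9 and 199.0 (0.50, spread 0.50), both below the control floor. Hspa2, another gene best known from the testis, read 194.5 on the MB type with tetracycline and 66.8 after withdrawal. The first of these values was already below the control floor, so its bound of at least 2.43-fold lower holds against the lower floor only.

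HSP110 genes went both ways. Hsph1, heat-inducible and with heat shock element letters on either side of its start, read 7753.0 with tetracycline and 5791.7 after withdrawal (-0.42, spread 0.30). It was the lowest member of its class and among those that exceeded the spread. The probe sets of Hspa4 gave 3386.3 and 3101.8 (-0.13) on one and 984.7 and 1230.1 (0.32) on the other, both on the first type. These opposite signs on 1 array type show how far probe sets of a single gene can differ. Hspa4l, the third HSP110 gene, read 444.0 and 545.0 (0.30, spread 0.56).

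HSP90 was represented by Hsp90aa1, the inducible cytosolic form. On the first type it read 10868.6 and 11873.3 (0.13), and on the MB type 8002.0 and 7386.3 (-0.12). The gene thus had opposite signs on the array types, each within a spread of 0.26 and 0.28. Stip1, the adaptor between HSP70 and HSP90, read 1690.3 and 1928.2 (0.19, spread 0.37). Hspbp1, a nucleotide exchange factor of HSP70, read 1682.5 and 1486.1 (-0.18, spread 0.34).

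Among J-domain proteins the A class was nearly level, and Dnajb1 of the B class was higher on both of its probe sets. Dnaja1, a partner of HSC70, read 3125.5 and 3544.8 on the MB type (0.18). Dnaja2 read 2000.4 and 2050.4 (0.036), and the mitochondrial Dnaja3 859.1 and 950.1 (0.15), both on the first type. All 3 were within the spread. Dnajb1, the heat-inducible HSP40, read 911.6 and 1303.5 on one probe set (0.52, or 1.43-fold) and 844.8 and 1177.7 on the other (0.48, or 1.39-fold), each beside a spread of 0.41. Both values exceeded the spread and differed from each other by 0.037, and neither reached 1.5-fold. Dnajb6, which keeps aggregation-prone proteins soluble, had 3 probe sets with changes of 0.007, 0.079 and 0.093. The brightest of them read 3617.8 and 3857.8.

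Dnajb3, a J-domain gene known from the testis, was the member with the largest measured change. Its 2 probe sets come from 1 source sequence, as their shared name shows. One of them read 93.2 with tetracycline and 455.6 after withdrawal (2.29, or 4.89-fold, spread 1.42), and the other 35.4 and 83.3. With tetracycline both were below the control floor, against which the first was at least 1.34-fold higher. The change was 1.61 times the spread at this level.

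The C class includes the inhibitor of PKR named above. Dnajc3, encoding P58IPK, read 1081.7 and 913.2 on the first type (-0.24, spread 0.42) and 677.5 and 721.1 on the MB type (0.090, spread 0.51). Its values were lower on one type and higher on the other, both within the spread. Dnajc15, a J-domain protein of the mitochondrial inner membrane, read 1134.2 and 706.6 (-0.68, spread 0.42), or 1.60-fold lower. Dnajc13, which acts on endosomes, was lower on both probe sets of 1 source sequence, with 1169.1 and 733.2 (-0.67, spread 0.46) and 1279.3 and 1045.0 (-0.29, spread 0.41). The Dnajc15 probe set and 1 of the Dnajc13 pair were the members above the control floor that passed 1.5-fold.

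The other C class genes gave smaller or conflicting values. Dnajc21, needed for ribosome assembly, read 633.1 and 856.7 on one probe set (0.44, spread 0.42). Another one of the same source sequence went from 163.9 to 55.7, the opposite way and to below the floor. Both of these readings were below the control floor. Dnajc1, a J-domain protein of the endoplasmic reticulum membrane, read 617.7 and 635.1 (0.040) on one probe set and 179.6 and 19.7 on another. The second was thus at least 1.38-fold lower against the floor, and its value with tetracycline was already below the control floor. Dnajc2, the ribosome-bound partner of Hspa14, read 1984.9 and 1830.5 (-0.12), and Dnajc17, a nuclear protein, 307.2 and 288.1 (-0.093). Dnajc11, a protein of mitochondrial membranes, was below the floor on both arrays (90.6 and 51.8).

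J-domain and FKBP genes of the endoplasmic reticulum did not share a direction. Of 7, 4 were higher and 3 lower, with a median of 0.011. Dnajc10, a reductase that helps degrade misfolded proteins, read 1557.3 and 1983.5 (0.35, spread 0.37). Dnajb9, a regulator of Hspa5 and of the stress sensor Ire1, was below the control floor on all readings (190.8 and 209.5, and 181.7 and 264.4). Dnajb11, a cofactor of Hspa5, read 1815.9 and 1653.1 (-0.14). Fkbp9 read 2010.1 and 1425.6 on the MB type (-0.50, spread 0.37), and was the one gene of the 7 whose change exceeded the spread.

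**Figure D2:**
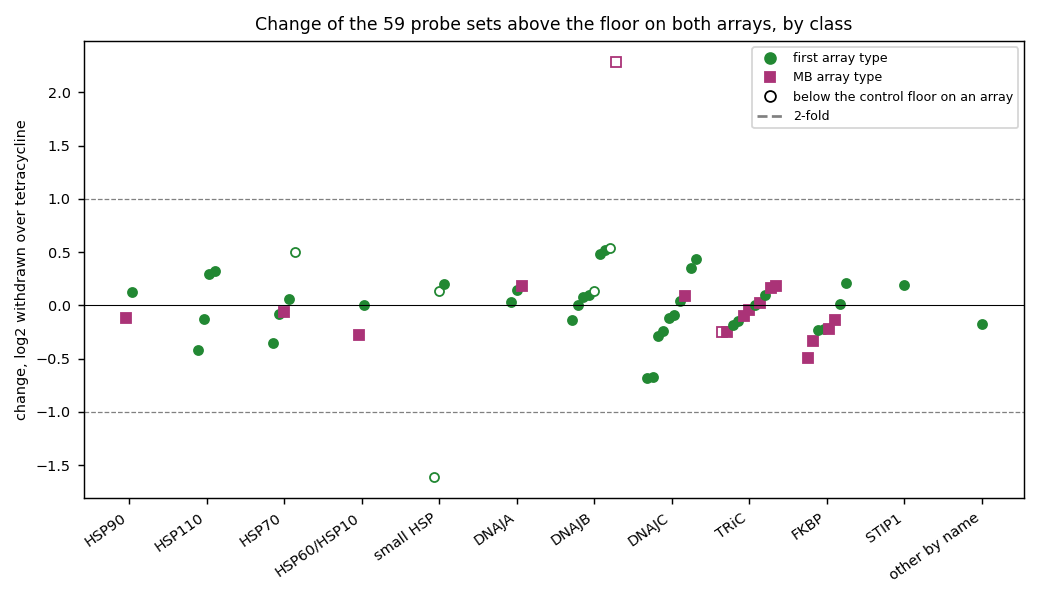
Change (log2 of withdrawn over tetracycline intensity) of the 59 measured chaperone probe sets by class. Circles are the first array type, squares the MB type, open symbols had a reading below the control floor, and dashed lines mark 2-fold. All filled symbols lie between -0.68 and 0.52, and the points beyond 2-fold, for Hspb2 and Dnajb3, are open.

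The TRiC subunits were close to level. All 9 genes were measured, with changes from -0.25 to 0.16 per gene and a median of -0.041, and each of the 11 probe sets lay within its spread. Cct2 read 15555.3 and 15789.9 (0.022), Cct5 10403.2 and 10114.9 (-0.041), Cct7 7299.4 and 8158.5 (0.16) and Cct8 4309.7 and 4026.3 (-0.098), all on the MB type. Cct6a was the lowest of the bright subunits (6787.5 and 5703.0, -0.25, spread 0.30). Tcp1, the alpha subunit, read 7693.3 and 8212.5 on the first type (0.094). Cct4 read 6413.1 and 5795.7 on the first type (-0.15) and 11060.1 and 12576.1 on the MB type (0.19), again with opposite signs. The Cct3 probe sets gave 2792.9 and 2456.6 (-0.19) and 1054.1 and 1058.5 (0.006). Cct6b, a testis form of the zeta subunit, was below the control floor (212.9 and 178.7).

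The mitochondrial chaperonin genes, which share the region printed above, were measured on different array types. Hspd1, encoding HSP60, read 11084.4 and 9128.9 on the MB type (-0.28, spread 0.26), and Hspe1, encoding HSP10, 2441.1 and 2443.9 on the first type (0.002, spread 0.35). One was lower by slightly more than its spread and the other was level. A difference between the genes cannot be told apart from one between the array types. Over the 6 measured mitochondrial genes 3 were higher and 3 lower, with a median of -0.040.

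Of the 7 FKBP genes, 5 were lower and 2 higher, with a median of -0.23, where 50.4% of all measured genes were lower. This was the lowest median of the classes, and only the Fkbp9 probe set and 1 of Fkbp1a passed their spread. The median was -0.11 over the 4 genes of the first type and -0.28 over the 3 of the MB type. A difference between these genes cannot be told apart from one between the array types. Fkbp1a, the FKBP12 protein bound by FK506 and rapamycin, read 13815.1 and 10983.4 (-0.33, spread 0.25) on one probe set and 9298.5 and 7970.7 (-0.22, spread 0.28) on the other, both of the MB type and both of the _f_ kind. Fkbp4, an HSP90 co-chaperone of steroid receptors, read 6291.9 and 5717.9 (-0.14). Fkbp5, its counterpart induced by glucocorticoids, read 2023.5 and 1722.4 (-0.23), and the nuclear Fkbp3 4849.5 and 4146.6 (-0.23). Fkbp8, on the mitochondrial outer membrane, was higher (1159.9 and 1339.6, 0.21, spread 0.38), and Fkbp2 was level (1295.3 and 1305.1, 0.011).

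The small heat shock proteins held the other change beyond 2-fold. Hspb2, known from muscle, read 413.6 with tetracycline and 135.1 after withdrawal (-1.61, or 3.06-fold lower, spread 1.05). The second value lies barely above the floor and below the control floor, against which the gene was at least 1.47-fold lower. Hspb1, the heat-inducible HSP25 of mouse, read 275.2 and 301.5 (0.13), around the control floor. Hspb8, a partner of Bag3 in the clearance of aggregates, read 1665.8 and 1911.7 (0.20, spread 0.38). The only heat shock factor among the members was Hsf2, which was below the floor on both arrays (60.9 and 33.4), so no change can be given.

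Repeated probe sets showed how far such values differ between probe sets of 1 gene. Those of 1 array type read the same arrays, so their agreement does not replicate the withdrawal. Of 11 genes with several measured probe sets, 3 were higher on all of them (Dnajb1, Dnajb6 and Dnajb9), 3 were lower on all (Hspa8, Fkbp1a and Dnajc13), and 5 had both signs (Hspa4, Cct3, Cct4, Hsp90aa1 and Dnajc3). The Dnajb9 probe sets share 1 source sequence, as do those of Dnajc13. Of the 4 genes measured on both array types, 3 had opposite signs. Without probe sets of a shared source sequence, 5 of 9 member genes had both signs, beside 235 of 525 genes of the arrays. Without probe sets of a shared source sequence the range within a gene had a median of 0.24 over 9 member genes and of 0.37 over 525 genes of the arrays. Both changes of Dnajb1 and both of Fkbp1a were larger than the range between the gene's probe sets (0.037 and 0.11). For the other 4 genes with 1 direction, at least 1 change was smaller than that range.

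**Figure D3:**
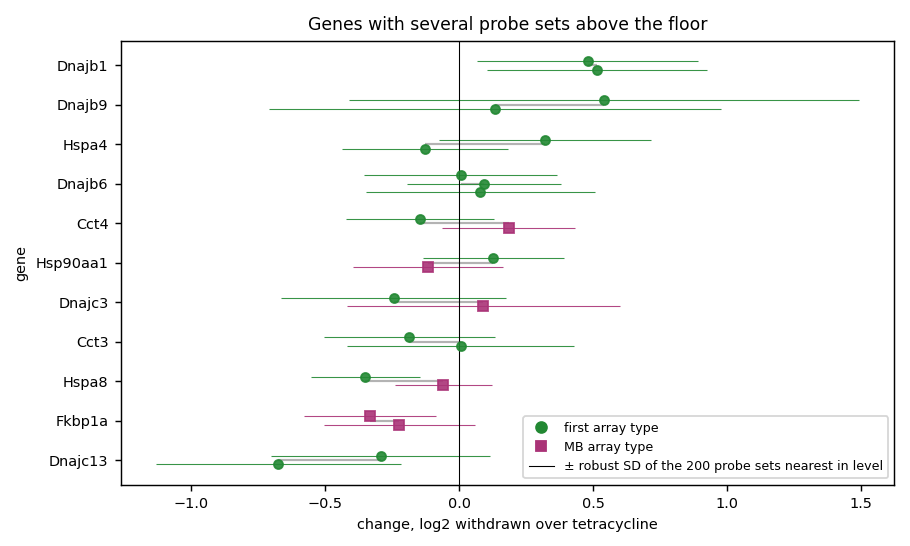
Change (log2 of withdrawn over tetracycline intensity) on each measured probe set of the 11 chaperone genes with several of them. Circles are the first array type, squares the MB type, and thin bars reach 1 robust SD of the 200 probe sets nearest in level to each side. Both Dnajb1 points (0.48 and 0.52) lie to the right of 0 beyond their bars, while 5 genes have points on both sides of 0.

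Genes with and without heat shock element letters both had medians close to 0. Of the 12 measured genes with at least 1 pair of units in a window, 7 were higher, with a median of 0.012. Hspa1a, which also had a pair, is left out because its value with tetracycline was below the floor. Of the 29 without, 16 were higher, with a median of 0.036. The same medians over all measured genes of the arrays were 0.00019 for 514 with a pair and -0.014 for 3104 without. The 4 genes with the longer runs had changes of 0.079 (Dnajb6), 0.002 (Hspe1), -0.28 (Hspd1) and -0.42 (Hsph1). A match describes the letters of a window and does not show that a factor binds there.

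**Figure D4:**
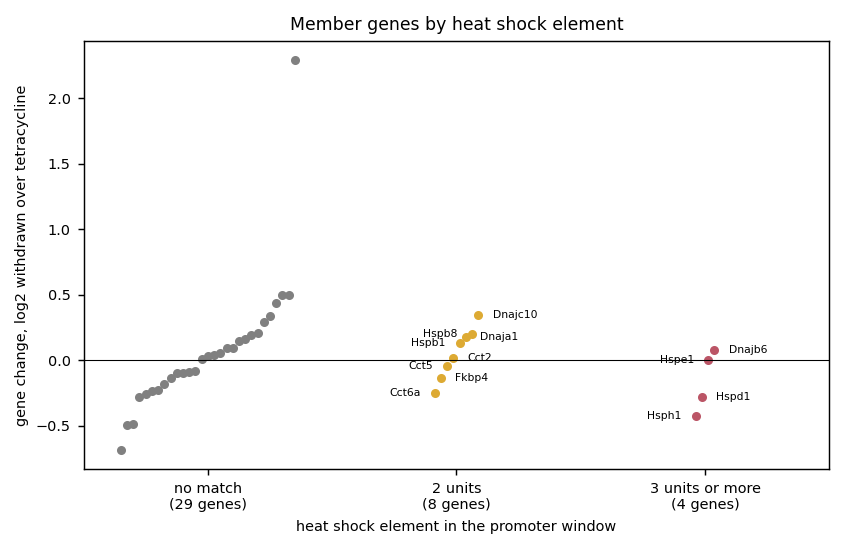
Gene change (log2 of withdrawn over tetracycline intensity) of the 41 measured chaperone genes with a promoter window, by the heat shock element letters found in it: none, a pair of units, or a run of 3 units or more. Each point is 1 gene. The points of the 29 genes without a match include the highest change, that of Dnajb3, and the lowest, that of Dnajc15, and the groups overlap.

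Chaperone partners outside the symbol rule were described in 4 lists, beside 50.4% lower genes over all those measured. In a list of HSP70 and HSP90 co-chaperones 9 of 12 measured genes were lower and 3 higher (median -0.22, against -0.004 over all genes). Among them 1 passed 2-fold, Pih1d1, a subunit of the R2TP complex that assembles with HSP90 (1019.1 and 481.0, -1.08, spread 0.47), where 4.22% of all genes were 2-fold lower. Prefoldin and cofactors of TRiC and tubulin folding had 3 of 5 lower (median -0.25), with Pdcl3 past 2-fold (376.7 and 168.0, -1.17, spread 0.92, the second value below the control floor). Mitochondrial proteostasis genes had 6 of 10 lower (median -0.064) and none past 2-fold. Endoplasmic reticulum chaperones, Hspa5 among them, had 9 of 11 lower (median -0.30) and none past 2-fold.

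Known targets of heat shock factors outside the rule went both ways. Of 12 measured, 8 were lower and 4 higher, with a median of -0.28, against the same 50.4% lower over all genes. The 1 past 2-fold was Atf3, also a target of the integrated stress response, with 368.4 and 743.1 (1.01, spread 0.61), where 5.26% of all genes were 2-fold higher. Cryab, chosen after its values were seen, encodes the small heat shock protein alpha B-crystallin. It was lower on both array types, at 2693.2 and 1774.8 on the first (-0.60, spread 0.38) and 2302.9 and 1601.9 on the MB type (-0.52, spread 0.33). Each change exceeded its spread, and the types gave the same direction, but both probe sets are of the _f_ kind. Cryab was not alone in this list, and Hmox1, Mt2, Vcp and Serpinh1 were likewise chosen after their values were seen. Hmox1, on its measured probe set, read 1607.3 and 947.4 (-0.763, spread 0.375), and Mt2 read 11535.8 and 8087.8 (-0.51, spread 0.27). Vcp was lower on each of its probe sets, by -0.41 (spread 0.29) and -0.37 (spread 0.27) on the MB type. On the first type its changes of -0.24 (spread 0.47) and -0.73 (spread 0.77) lay within the spread. Serpinh1 changed by -0.51 (spread 0.25) on the MB type and by -0.086 (spread 0.26) on the first. Sqstm1, chosen like Cryab after its values were seen, encodes the autophagy receptor p62 and was higher, from 15335.6 to 20916.5 (0.45, spread 0.20). Bag3, chosen in the same way, a co-chaperone induced strongly by heat, read 1529.0 and 1442.3 (-0.084, spread 0.34). Some genes stand in more than 1 of these lists.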

How the data were processed

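Each of the 4 arrays has a column of linear intensities in the deposited tables, with no detection calls. No software, scaling or build is given in the sources used here, and the Affymetrix scheme is known from the probe set names only. The intensities were used as deposited, since the trimmed means (2% cut from each end) of the arrays of a type lay close together. On each type 61 control probe sets were left out. Gene names came from the platform annotation, and updating them through Entrez identifiers changed no member. Classes of chaperones and places in the cell were assigned by hand from general knowledge. The members and all lists were chosen with earlier results of these data known.

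Named were members past 2-fold, those with several measured probe sets, the brightest of each class, the highest and lowest changes, heat shock factors, and members with a bound of 2-fold or more. Members outside this rule were added so that each gene is accounted for, and list genes were named past 2-fold. A few further list genes were chosen after their values were seen. The log2 change was computed from the deposited intensities with no pseudocount and no test. Counting was tested on simulated data. The alternatives changed the scaling (loess with a span of 0.4, median ratio, quantile or trimmed mean), the floor, the fold limit, the gene summary or the symbols. Values were computed with pandas 2.3.3 and numpy 2.4.6 in Python 3.11.15, loess with statsmodels 0.14.6, and plots with matplotlib 3.10.9.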

Additional observations from a re-analysis of the deposited data

How the results depend on the processing

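The 2-fold counts depended on the floor. On the first type the count of 1 became 0 at the doubled floor and at the control floor, 4 with no floor and 3 at 1.5-fold. On the MB type it became 2 at the halved floor, 0 at the doubled and control floors and 3 with no floor. Over all members the median of 0.006 became -0.077 with no floor and -0.079 on the MB type alone. Under the other alternatives it lay between 0.002 and 0.036, and without the endoplasmic reticulum genes (chosen after seeing the data) it was 0.004. The Dnajb median of 0.34 became 0.079 at the doubled and control floors, where Dnajb3 and Dnajb9 drop out, and 0.52 with the brightest probe set. It was 0.11 without the _g_ probe sets, which repeat a source sequence (chosen after seeing the data). Dnajb3 leaves the class there, because its other probe set was not measured. On the MB type alone the median was 2.29 and rests on Dnajb3. The Dnajc median of -0.085 became -0.48 with no floor and 0.090 on the MB type alone, where it rests on Dnajc3. The HSP110 median of 0.097 became -0.13 with the brightest probe set. In the settings named for these class medians the change of each probe set stayed as it was. Only the genes and probe sets that entered a median differed. Under the 4 scalings 43 of 47 genes kept their sign, and Cct2, Cct5, Fkbp2 and Hspe1, all near 0, did not. The TRiC median of -0.041 turned to 0.068 under quantile scaling and 0.046 under loess. The HSP70 median of -0.013 turned to 0.036 under median ratio. No paired analysis was possible because each group has 1 array per type. Hsf2 and Dnajc11 were below the floor on both arrays and give no change, and Hspa1a and Hspa2 were below it on 1 array and give bounds only.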
